A study of Mus musculus with 10 samples.

Results

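Of 8876 Suz12 binding sites listed in mouse embryonic stem cells (ESCs), 623 (7.02%) were strongly bound, appeared in the list of sites depleted after Pcl3 knockdown, and had no Pcl3 site nearby. These sites were selected on measured values: a Suz12 p-value of at most 1e-39, presence in the Suz12-depleted list, no Pcl3 center within 2000 bp and no base shared with a Pcl3 site. They are called strong depleted sites without Pcl3 here. The 2884 sites that met the same p-value and depletion criteria but had a Pcl3 center within 2000 bp or a shared base served for comparison.

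The series measured Suz12, H3K27me3 and Pcl3 by ChIP-seq, which sequences DNA fragments pulled down with an antibody. Suz12 and H3K27me3 were measured in the BayGenomics gene trap line XG122 with the genotype Suz12Suz12TAP/+, in which 1 Suz12 allele carries a TAP tag, with Pcl3-shRNA or scramble. Pcl3 was mapped in other cells, the line E14 ESC expressing Pcl3-TAP together with Pcl3-wildtype-shRNA6 or Pcl3-wildtype-shRNA7. The Suz12 and Pcl3 ChIPs used anti-FlagM2, and the H3K27me3 ChIP anti-H3K27me3. Each Suz12 and H3K27me3 condition had 1 library, and the 2 Pcl3-TAP libraries shared 1 site list. A site without Pcl3 is therefore one at which no Pcl3 site was listed in E14 cells at the authors' cutoff of 1e-07, and binding of Pcl3 below that cutoff, or in XG122 cells, was not measured. Tests below are over sites, which are not replicates of a condition, and compare these libraries. The lists hold no read counts, so the depth behind each site is unknown.

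Suz12 is a core subunit of Polycomb Repressive Complex 2 (PRC2), which trimethylates lysine 27 of histone H3 at silent developmental genes. In ESCs, PRC2 is found mainly at CpG islands, stretches rich in CpG dinucleotides that often hold the start of a gene. Pcl3 (also called Phf19) is a Polycomb-like protein, an accessory PRC2 subunit with a Tudor domain and PHD fingers.

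The middle of some of the strongest of these sites is shown as example sequence. Sites with and without Pcl3 were picked under limits, among them that the central bases hold no untranslated region of a transcript. Each line below gives the central 300 bases on the plus strand of mm9, with every CpG in capitals, for 3 of the 10 strongest sites. The central bases of all 3 are intronic.
Dusp4, chr8:35871451-35871750: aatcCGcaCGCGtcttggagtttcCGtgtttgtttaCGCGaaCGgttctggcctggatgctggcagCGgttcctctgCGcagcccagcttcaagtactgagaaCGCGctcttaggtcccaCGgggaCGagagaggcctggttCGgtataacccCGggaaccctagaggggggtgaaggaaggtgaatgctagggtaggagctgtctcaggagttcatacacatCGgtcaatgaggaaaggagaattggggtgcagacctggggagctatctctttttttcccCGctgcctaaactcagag
Mxi1, chr19:53386526-53386825: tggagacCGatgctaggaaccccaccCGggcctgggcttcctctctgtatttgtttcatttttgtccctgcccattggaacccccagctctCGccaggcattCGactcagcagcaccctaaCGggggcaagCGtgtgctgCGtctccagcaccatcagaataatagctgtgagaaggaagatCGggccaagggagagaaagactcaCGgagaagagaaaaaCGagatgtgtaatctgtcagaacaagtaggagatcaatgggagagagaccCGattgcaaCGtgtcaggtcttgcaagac
Ppp1r16b, chr2:158493601-158493900: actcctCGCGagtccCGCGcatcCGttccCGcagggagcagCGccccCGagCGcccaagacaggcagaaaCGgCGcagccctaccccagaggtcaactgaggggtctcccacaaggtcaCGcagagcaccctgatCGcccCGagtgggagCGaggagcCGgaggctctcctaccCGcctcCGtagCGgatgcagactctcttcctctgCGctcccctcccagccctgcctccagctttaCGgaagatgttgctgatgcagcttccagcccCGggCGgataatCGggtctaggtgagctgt
For comparison, the sites with Pcl3 closest in p-value to the first 2, under the same limits, were at Insm2 and Id4.
Insm2, chr12:56700676-56700975: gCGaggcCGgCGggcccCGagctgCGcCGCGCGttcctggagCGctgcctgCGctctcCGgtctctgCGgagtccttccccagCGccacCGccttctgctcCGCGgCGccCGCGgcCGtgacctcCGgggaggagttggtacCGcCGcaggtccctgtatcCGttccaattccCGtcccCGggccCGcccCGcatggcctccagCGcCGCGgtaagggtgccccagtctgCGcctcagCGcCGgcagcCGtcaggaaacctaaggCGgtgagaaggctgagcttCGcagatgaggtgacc
Id4, chr13:48357226-48357525: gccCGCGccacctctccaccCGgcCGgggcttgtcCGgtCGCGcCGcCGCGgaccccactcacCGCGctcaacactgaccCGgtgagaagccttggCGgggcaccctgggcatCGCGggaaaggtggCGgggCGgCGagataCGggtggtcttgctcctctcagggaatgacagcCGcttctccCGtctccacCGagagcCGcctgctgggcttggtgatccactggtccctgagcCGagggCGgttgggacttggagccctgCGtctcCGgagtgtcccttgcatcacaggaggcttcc
The 3 sequences without Pcl3 hold 17, 12 and 24 CpG in the order shown, against 37 and 28 in the sequences with Pcl3, which overlap coding exons. These few sequences are examples only. Over the whole groups, compared below, the median CpG density at the center was slightly higher without Pcl3, but not consistently so at like Suz12 strength.

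Strong Suz12 sites were nearly all depleted after Pcl3 knockdown, with or without Pcl3. The depleted list held 623 of 636 strong sites without Pcl3 (98.0%) and 2884 of 2896 strong sites with Pcl3 (99.6%), beside 64.5% of all 8876 Suz12 sites. These shares are given as a description, because depletion is part of the selection. The depleted list repeats the binding p-value of each site, so the size of the loss at each site was not available. Across all Suz12 sites, 47% had Pcl3, and among strong depleted sites 17.8% did not.

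The sites without Pcl3 lay at the weaker end of the strong range. Their median strength, defined as −log10 of the Suz12 p-value, was 54.8 (quartiles 45.2 and 70.1), against 117 (quartiles 70.5 and 212) for the sites with Pcl3. At 435 sites the p-value was written as 0, too small for the number format, and all 435 had Pcl3. When the 3507 strong depleted sites were divided into 5 equal groups by strength, the weakest held 315 sites without Pcl3 (44.9% of its sites), the next 201, the middle group 91, the fourth 13 and the strongest 3. The sites without Pcl3 were also narrower, with a median width of 1650 bp against 2150 bp, and width follows the p-value. At like strength the order turned: in each of the 5 strength groups the median width was larger without Pcl3, with 2100 bp against 1950 bp in the middle one. Because strength differed between the groups, each tested feature below is also given within the 5 strength groups as a Mantel-Haenszel odds ratio.

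Most of the sites without Pcl3 were far from any Pcl3 site. The median distance to the nearest Pcl3 center was 139900 bp (quartiles 43238 and 341475), and 364 sites (58.4%) were more than 100 kb away. Only 65 (10.4%) had a Pcl3 center within 10 kb, of which 34 lay between 2 and 5 kb. A Suz12 site that itself had Pcl3 was found within 10 kb of 60 sites (9.63%).

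**Figure D1:**
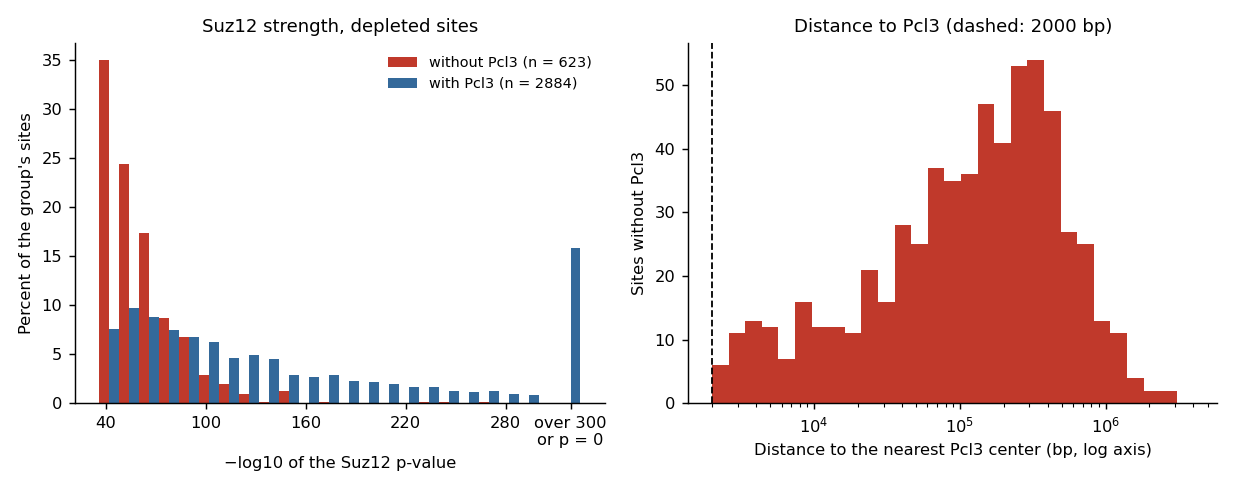
Left, percent of each group's sites in bins of Suz12 strength (−log10 p-value; the last bin holds values over 300 and p-values written as 0); right, number of strong depleted sites without Pcl3 by distance to the nearest Pcl3 center in bp on a log axis. Sites without Pcl3 (n = 623, median 54.8) crowd at the low end of the strong range, sites with Pcl3 (n = 2884, median 117) extend to the highest values, and the median distance to Pcl3 is 139900 bp.

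The strongest site without Pcl3 was at Dusp4, which encodes a phosphatase of MAP kinases. It spans chromosome 8 from 35869601 to 35873600 (mm9, 4000 bp, p of 4.33e-272), includes the gene start, and has its nearest Pcl3 center 4600 bp away. A Suz12 site that had Pcl3 lay 2950 bp from it.

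The second was inside Plec, the gene of plectin, a linker of cytoskeletal filaments, 7773 bp from the nearest annotated start (chromosome 15, 76008651 to 76012750, p of 3.92e-252, Pcl3 49475 bp away). The third covered the start of Mxi1, which encodes a Max-binding antagonist of Myc (chromosome 19, 53384601 to 53388750, p of 8.05e-231, Pcl3 171525 bp away). Unlike Dusp4, the Plec and Mxi1 sites had no Pcl3 center within 10 kb.

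The remaining 7 of the 10 strongest sites had p-values from 1.66e-174 to 6.67e-151. They covered the start of Cntnap1, a component of axon-glia junctions, together with that of Plekhh3, and those of Lrp8 (a Reelin receptor), Ppp1r16b (a regulatory subunit of protein phosphatase 1), Ptch1 (the Hedgehog receptor), Ppargc1b (a transcriptional coactivator of metabolic genes), Tpbg (a trophoblast glycoprotein) and Bcl2l11 (the pro-apoptotic protein Bim). The Plekhh3 and Cntnap1 site and the Ptch1 site had a Pcl3 center at 3775 and 4375 bp, the Lrp8 and Ppp1r16b sites at 43575 and 52050 bp, and the others at 363225 bp or farther. The Bcl2l11 site was the widest of the 623, at 4800 bp.

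The sites farthest from Pcl3 were at Slc16a14, a monocarboxylate transporter family gene (2643500 bp, p of 2.68e-45), and at Sorcs1, a sorting receptor gene (p of 1.52e-56). The next were at Sall2, a zinc-finger transcription factor gene (p of 8.01e-93), between genes on chromosome 8 from 52000351 to 52002450 (p of 6.72e-93), and at Rab31, a gene of a small GTPase of vesicle traffic (p of 7.20e-42). Sall2 and the site on chromosome 8 belong to the middle strength group, so distance from Pcl3 did not restrict these examples to the weakest sites.

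Each site has 1 p-value from 1 library pair, and the p-values at the selection limit ran on without a gap. The 3 weakest sites inside the limit, at Gramd1b, Cd70 and Nxnl2, each had p of 9.89e-40. Just outside it were sites at Frat2 (1.09e-39), Endod1 (1.13e-39) and Prune2 (1.33e-39).

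The start of a protein-coding gene lay inside 471 of the 623 sites without Pcl3 (75.6%, 95% Wilson interval 72.1% to 78.8%). With Pcl3 it lay inside 2027 of 2884 (70.3%, 68.6% to 71.9%), beside 55.1% of all Suz12 sites. The difference of 5.32 percentage points (95% interval 1.43 to 8.95) passed Fisher's exact test (two-sided, adjusted p of 0.0125 over 6 comparisons). Within strength groups the odds ratio was 1.84 (1.48 to 2.30, adjusted p of 3.46e-07). In the middle strength group, for example, a start was inside 84.6% of sites without Pcl3 and 66.6% of sites with Pcl3. Counted without regard to width, a start lay within 1 kb of the center of 75.4% and 64.3% of sites, with an odds ratio of 1.72 within strength groups (adjusted p of 7.02e-06), which was added with the data in view. Part of this difference moved with the spacing of sites: when Suz12 sites with gaps under 2 kb were counted once, by the strongest of each run, the shares were 77.6% and 76.7% (adjusted p of 0.855), and 1.41 was the odds ratio within strength groups (adjusted p of 0.00928).

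Sites outside genes, with no start within 1 kb, made up 7.38% of the sites without Pcl3 (46 sites) and 15.2% of those with Pcl3. The share inside a gene but away from its start was 12.7% against 10.96%, and the rest, 4.33% and 3.61%, had a start within 1 kb of their edge. The 471 sites covered the starts of 486 protein-coding genes, and 448 of them that of exactly 1 gene. Starts of 24 genes lay both in a site without Pcl3 and in a strong depleted site with Pcl3. Among them were Ank1, Auts2, Dab1, Lats2, Myh7b, Shank1 and Speg. They also included Cntnap1, Lrp8, Plekhh3 and Ptch1, whose sites are named above among the strongest without Pcl3. Lack of Pcl3 at these sites thus did not mean lack of Pcl3 at the gene. Plec was among the 24 through another site without Pcl3, since the Plec site named above held no start.

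Sites without Pcl3 had fewer Suz12 neighbours before strength and close spacing were both taken into account. The selection bears on this count, because a site with a neighbour's Pcl3 center within 2000 bp was placed in the group with Pcl3. How much of the difference comes from the selection was not tested. Another Suz12 center lay within 10 kb of 174 sites (27.9%, 24.5% to 31.6%) without Pcl3 and of 1268 (44.0%, 42.2% to 45.8%) with Pcl3, beside 39.4% of all Suz12 sites. The difference was −16.0 points (−19.9 to −12.0, Fisher's exact test, adjusted p of 4.14e-13). The odds ratio was 0.494, and 0.638 within strength groups (adjusted p of 0.000103). With neighbouring sites counted once it was 0.605 (adjusted p of 3.85e-06), and with both adjustments 0.885 (0.702 to 1.12, adjusted p of 0.367), so at equal strength no difference was detected beyond gaps of 2 kb. The median distance to the next Suz12 center was 46325 bp without Pcl3 and 19125 bp with Pcl3.

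Sites without Pcl3 were spread over every chromosome except Y, which held no strong depleted site with Pcl3 either. Among strong depleted sites, the share without Pcl3 ran from 10.9% on X to 25.6% on chromosome 15, with 24.6% on chromosome 9 and 23.3% on chromosome 11. Chromosome 11 held 76 of the 623 sites (12.2%, 9.86% to 15.0%) and 8.67% (7.70% to 9.75%) of the sites with Pcl3, beside 10.4% of all Suz12 sites. The share of all sites thus lay inside the interval without Pcl3 and above that with Pcl3. The odds ratio was 1.46 (Fisher's exact test, adjusted p of 0.0125), and 1.65 within strength groups (adjusted p of 0.00280). Of the chromosomes, 11 alone was tested.

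H3K27me3, the mark that PRC2 deposits, was measured in libraries that played no part in the selection. A site called lower for H3K27me3 in Pcl3-shRNA cells had its center within 2 kb of 74 of the 623 sites without Pcl3 (11.9%, 9.57% to 14.7%) and of 384 of 2884 with Pcl3 (13.3%, 12.1% to 14.6%), beside 7.37% of all Suz12 sites. The difference was −1.44 points (−4.08 to 1.58) and did not pass Fisher's exact test (odds ratio 0.878, adjusted p of 0.399). Within strength groups the direction turned, with an odds ratio of 1.47 (1.09 to 2.00, adjusted p of 0.0136). With neighbouring sites counted once, and no strength groups, the odds ratio was 0.952 (Fisher's exact test, adjusted p of 0.855). For H3K27me3 these 2 adjustments were not combined.

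From the weakest strength group to the middle one, the shares were 7.30% without and 6.46% with Pcl3, then 12.9% and 9.60%, then 22.0% and 13.6%. In both groups the share was higher at stronger sites, and in each of these strength groups it was higher without Pcl3, with overlapping intervals. The fourth and strongest groups held only 13 and 3 sites without Pcl3, of which 3 and 2 had an H3K27me3-depleted site. A Breslow-Day test found no difference of the odds ratio between the 5 strength groups (p of 0.371).

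On chromosome 11 the H3K27me3 shares were 25% without Pcl3 (19 of 76) and 41.2% with Pcl3 (103 of 250, odds ratio 0.476, unadjusted Fisher's exact p of 0.0104). On the other chromosomes they were 10.1% and 10.7% (p of 0.703). The odds ratios of chromosome 11 and the rest differed at an unadjusted Breslow-Day p of 0.0410 (adjusted p of 0.287 over 7 such tests). These comparisons were not made within strength groups, although the H3K27me3 share was higher at stronger sites. On chromosome 11 the fourth and strongest strength groups held 2 and 0 sites without Pcl3, against 73 and 64 with Pcl3. How much of the chromosome 11 difference goes with strength was not tested. Leaving out chromosome 11, which was decided on with the data in view, gave an odds ratio within strength groups of 1.505 (1.06 to 2.13, adjusted p of 0.0246).

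**Figure D2:**
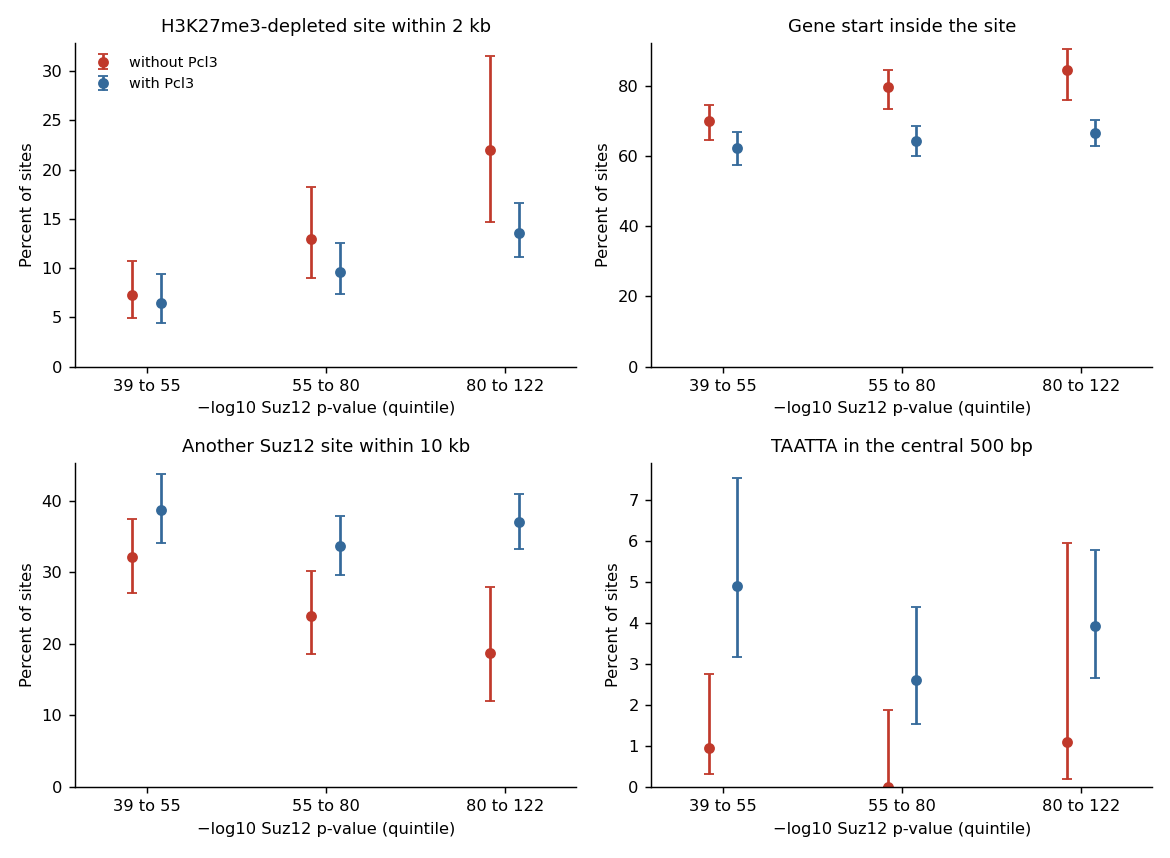
Percent of strong depleted Suz12 sites with each feature in the 3 weaker of 5 equal strength groups, with the range of −log10 Suz12 p-value under each; red, without Pcl3, blue, with Pcl3, bars are 95% Wilson intervals over sites. Without Pcl3 more sites held a gene start and fewer had a Suz12 neighbour or TAATTA, and the H3K27me3 shares rise from 7.30% to 22.0% without Pcl3 and from 6.46% to 13.6% with it.

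The H3K27me3-depleted sites beside the 74 sites had p-values from 4.67e-31 to 1.21e-07 with a median of 8.34e-10, and 52 of the 74 held a gene start. The smallest p-value was at Chadl, which encodes a chondroadherin-like matrix protein (chromosome 15, 81523151 to 81525900, Suz12 p of 1.75e-125). Its nearest Pcl3 center was 375900 bp away and its nearest other Suz12 center 165050 bp away. This site thus had both calls of loss far from any listed Pcl3.

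The second smallest, 7.37e-28, was at Myo18a, an unconventional myosin gene on chromosome 11 (77672401 to 77674150, Suz12 p of 9.84e-70). Mmp9, the gene of a matrix metalloproteinase, followed with an H3K27me3 p of 2.38e-20 and a Suz12 p of 1.06e-104. Both covered the gene start, with Pcl3 72100 bp and 18175 bp away.

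The other 5 of the 8 smallest H3K27me3 p-values lay between 2.28e-18 and 3.86e-16. They were at Paqr4, a progestin and adipoQ receptor family gene whose Pcl3 center was 2300 bp away, at Pwwp2b, a PWWP domain gene, at Slc16a11, a monocarboxylate transporter family gene, at Bsn, the gene of the presynaptic protein Bassoon, and at Dusp4. Pcl3 was 60250 bp from the Pwwp2b site, 244825 bp from Slc16a11 and 401850 bp from Bsn. Of the 10 strongest Suz12 sites without Pcl3, those at Dusp4 and Plec had an H3K27me3-depleted site within 2 kb and the other 8 did not. Over all 623 sites without Pcl3 the share was 11.9%.

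Median CpG density at the centers was close with and without Pcl3. In the central 500 bp the median was 8.40 CpG per 100 bp (quartiles 6.20 and 10.6) without Pcl3 and 8.00 (5.20 and 10.6) with Pcl3, beside 7.00 at all Suz12 sites. Median GC content was 66.8% against 65.2%, and the median ratio of observed to expected CpG 0.765 against 0.761. The lower quartile of CpG density differed more than the upper one, so the group with Pcl3 held more CpG-poor centers. From the weakest to the strongest strength group, the median density was 8.2, 8.6, 8.2, 6.6 and 5.8 without Pcl3. With Pcl3 it was 8.2, 8.4, 8.3, 8.2 and 6.6, so at like strength the central median was higher without Pcl3 only in the second weakest group. Over whole sites the median density was higher without Pcl3 in each strength group. In the same order it was 5.74, 5.96, 5.92, 6.30 and 6.41 without Pcl3, and 5.22, 5.46, 5.49, 5.48 and 5.31 with Pcl3. The last 2 groups held only 13 and 3 sites without Pcl3.

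A CpG island meant a 500 bp window within the central 1000 bp. It had at least 55% GC and an observed to expected ratio above 0.65. Such an island was present at 562 sites (90.2%, 87.6% to 92.3%) without Pcl3 and 2459 (85.3%, 83.9% to 86.5%) with Pcl3, beside 72.9% of all Suz12 sites. The odds ratio was 1.59 (Fisher's exact test, adjusted p of 0.00323) and did not change within strength groups (1.59, adjusted p of 0.00481). The difference was lost when neighbouring sites were counted once (91.0% against 89.2%, adjusted p of 0.414), and with strength groups as well 0.999 was the odds ratio. Under a looser definition over the whole site, 99.7% and 99.6% held an island.

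**Figure D3:**
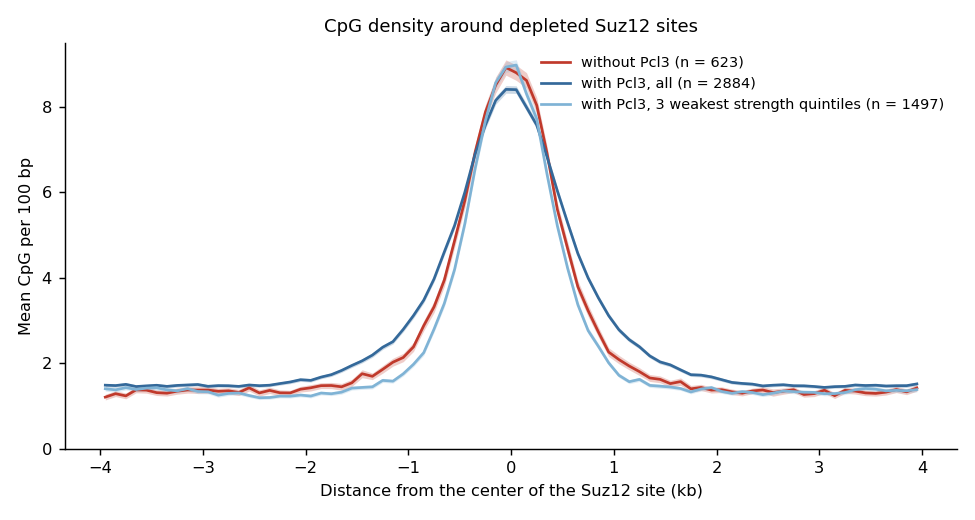
Mean number of CpG per 100 bp in 100 bp bins up to 4 kb either side of the site center; lines are strong depleted sites without Pcl3 (red, n = 623), with Pcl3 (dark blue, n = 2884) and with Pcl3 in the 3 weakest strength groups (light blue, n = 1497), and shading is the standard error over sites. The 3 profiles peak at the center, and the dark blue profile, of wider sites, is slightly lower there and has the broadest shoulders. Red lies above light blue on the shoulders, at 4.87 against 4.20 CpG per 100 bp in the bin centered at −550 bp.

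The motif GCGCGC, 3 GC dinucleotides in a row, was in the central 500 bp of 291 sites without Pcl3 (46.7%, 42.8% to 50.6%) and of 1292 with Pcl3 (44.8%, 43.0% to 46.6%), beside 37.5% of all Suz12 sites. The difference of 1.91 points (−2.38 to 6.23) did not pass the test (odds ratio 1.08, adjusted p of 0.399), and within strength groups the odds ratio was 0.908 (0.748 to 1.10, adjusted p of 0.331). Searched over whole sites, which were wider with Pcl3, the motif was in 70.0% and 76.4% (odds ratio 0.722, adjusted p of 0.00215), so its direction depended on the length searched and on strength.

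A panel of 8 other motifs was searched on both strands of the central 500 bp. TAATTA, which contains the TAAT core of many homeodomain binding sites, was in 4 of 623 sites without Pcl3 (0.642%, 0.250% to 1.64%) and in 123 of 2884 with Pcl3 (4.26%, 3.59% to 5.07%), beside 3.24% of all Suz12 sites. The odds ratio was 0.145 (Fisher's exact test, adjusted p of 5.14e-06 over the 8 motifs) and 0.151 within strength groups (adjusted p of 0.000451).

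Because TAATTA holds no G or C, the shares were also set side by side at like GC content, an alternative added after the data were seen. In the 1 of 5 equal groups with the lowest GC content, up to 58.2%, TAATTA was in 2 of 48 sites without Pcl3 and 77 of 654 with Pcl3 (4.17% and 11.8%). In the next group it was in 2 of 133 and 26 of 568. Above 63.4% GC it was in none of the sites without Pcl3, and in 13, 6 and 1 of the sites with Pcl3 in successive groups. Over the 5 GC groups the odds ratio was 0.222 (0.0811 to 0.606, adjusted p of 0.0100), closer to 1 than without this adjustment and still past the threshold.

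The 4 sites without Pcl3 that held TAATTA are at Prdm14, Phldb2, Pcdh1 and Shq1, and were named after their values were seen. For 3 of them, 30 bases of the plus strand of mm9 are given with TAATTA in capitals.
Prdm14, chr1:13116268-13116297: ttccgtctctctTAATTAtcagcccaacaa
Phldb2, chr16:45844091-45844120: cttcgggaccctTAATTAaatcctgccttt
Shq1, chr6:100513207-100513236: ttgtaagacacaTAATTAgatacgtcagcg
The Prdm14 and Phldb2 sites cover the gene start, the Pcdh1 site is inside a gene, and the site on chromosome 6 lies outside genes, 107677 bp from the start of Shq1.

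Of the other 7 motifs, GGGCGG, the GC box, was in 71.1% and 65.7% of sites (adjusted p of 0.0199), CGCG in 92.9% and 88.8% (adjusted p of 0.00744) and CACACACA in 4.01% and 7.04% (adjusted p of 0.0140). CGCG is contained in GCGCGC. All 3 missed the threshold within strength groups, where the odds ratio of GGGCGG went from 1.28 to 1.08 (adjusted p of 0.804), that of CGCG from 1.66 to 1.29 (0.907 to 1.84, adjusted p of 0.383) and that of CACACACA only from 0.552 to 0.581 (0.366 to 0.925, adjusted p of 0.0836). The E-box CANNTG (81.2% and 80.8%), GAGAGA (29.2% and 33.0%), CCGGAA (17.2% and 17.3%) and TTTGGCGC (1.28% and 0.936%) did not pass at all, with adjusted p from 0.116 to 1, and had odds ratios within strength groups of 0.979, 0.928, 1.06 and 1.03.

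The genes whose starts lay in the sites were described by 13 lists of gene families, counted without a test. Of the 471 sites without Pcl3 that held a start, 15 (3.18%, 1.94% to 5.19%) belonged to the 4 lists of developmental transcription factors, against 344 of 2027 (17.0%, 15.4% to 18.7%) with Pcl3 and 8.40% of all Suz12 sites with a start. Few of the sites without Pcl3 thus held the start of such a factor. This difference moved with strength, and in the 3 weakest strength groups the shares were 3.28% without and 4.75% with Pcl3, with overlapping intervals.

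Homeobox genes, which pattern the body axis and organs, gave the largest gap in percentage points when all sites with Pcl3 were counted. They accounted for 2 sites without Pcl3 (0.425%, 0.117% to 1.53%) and 187 with Pcl3 (9.23%), and for 1.96% of sites with Pcl3 in the 3 weakest strength groups. The 2 were Pou6f1, a POU homeobox gene (chromosome 15, 100429351 to 100431750, p of 1.13e-73), and Six5 (chromosome 7, 19679651 to 19681700, p of 6.26e-69). No Hox gene start was in a strong depleted site without Pcl3.

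Among the forkhead, Sox, T-box and Gata factors, 4 sites lacked Pcl3: Sox8, a neural crest and gonad factor (p of 2.61e-92), Foxo3 (p of 1.32e-87) and Foxo1 (p of 7.16e-69), effectors of insulin signalling, and Foxi2 (p of 2.19e-66). The bHLH factors gave 3, Msc (p of 1.07e-71), Heyl (p of 5.72e-66) and Hes1 (p of 2.15e-58), of which Heyl and Hes1 belong to the Notch-responsive family. These 2 lists accounted for 56 and 45 sites with Pcl3.

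Zinc-finger and nuclear receptor factors gave 6 sites without Pcl3 (1.27%) and 56 with Pcl3 (2.76%; 0.929% in the 3 weakest strength groups). Prdm14, a pluripotency regulator of ESCs and germ cells, was the strongest (chromosome 1, 13115051 to 13117700, p of 2.60e-114), with Pcl3 134125 bp away and an H3K27me3-depleted site of p of 1.19e-13 within 2 kb. Sall2 (p of 8.01e-93), the pluripotency factor Klf4 (p of 2.16e-85) and the immediate early gene Egr1 (p of 7.32e-72) followed, with Pcl3 at least 120200 bp away. The 3 had no H3K27me3-depleted site within 2 kb.

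Secreted signals and their receptors, the ligands and receptors of the Wnt, BMP, Fgf and Hedgehog families, accounted for 9 sites without Pcl3 (1.91%, 1.01% to 3.59%) and 107 with Pcl3 (5.28%, 4.39% to 6.34%). In the 3 weakest strength groups the shares were 1.75% and 3.61%, a wider gap in points than for homeobox genes there. For both lists the intervals with and without Pcl3 overlapped in these groups. After Ptch1 the strongest were Bmp3, a BMP family ligand (p of 6.26e-123), Fzd7, a Wnt receptor (p of 6.09e-114), and Gdf10, another BMP family ligand (p of 1.32e-83). Pcl3 was 182025 bp from Bmp3, 363250 bp from Fzd7 and 896125 bp from Gdf10.

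Lists of genes used by differentiated cells had closer shares. Ion channels and neurotransmitter receptors accounted for 24 sites without Pcl3 (5.10%, 3.45% to 7.47%) and 106 with Pcl3 (5.23%), led by Kcnn2, a calcium-activated potassium channel (p of 4.22e-94), Adra1b, an adrenergic receptor (p of 9.86e-87), Grik4, a kainate receptor subunit (p of 2.33e-84), and Kcnk3, a leak potassium channel (p of 3.93e-81). Adra1b and Grik4 had an H3K27me3-depleted site within 2 kb.

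Axon guidance and adhesion genes gave 15 sites (3.18%) against 88 (4.34%), with Slit1 (p of 1.89e-121) and Sema5a (p of 2.60e-95), both guidance cues, and the tight junction gene Cldn7 (p of 7.90e-94) behind Cntnap1. Synaptic and vesicle genes gave 8 (1.70%) against 33 (1.63%). Of these, Shank3, a scaffold of excitatory synapses, had a site without Pcl3 at each of 2 starts, on chromosome 15 from 89328551 to 89331500 (p of 1.36e-113) and from 89353551 to 89355700 (p of 2.66e-64), and its relative Shank1 (p of 4.09e-77) and the active zone gene Rims1 (p of 4.68e-61) followed. The second Shank3 site had an H3K27me3-depleted site within 2 kb (p of 7.56e-08).

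Solute carriers and transporters gave 17 sites (3.61%) against 52 (2.57%), with Slc35e4, Slc16a11, Slco2a1 and Slc22a3 the strongest. The list of G proteins, G protein-coupled receptors and cAMP signalling genes gave 18 (3.82%) against 64 (3.16%). Its strongest sites were at Gpr6, Gna14, Prkca (sharing its site with Apoh) and the neurotensin receptor Ntsr1. Matrix genes and their proteases gave 15 (3.18%) against 63 (3.11%), with Adam11, Mmp9, Adamts17 and Hs3st1. In these lists the intervals with and without Pcl3 overlapped.

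Kinases, phosphatases and cytoskeletal genes gave 27 sites (5.73%, 3.97% to 8.21%) against 66 (3.26%, 2.57% to 4.12%), and 4.33% of sites with Pcl3 in the 3 weakest strength groups. After Dusp4 and Ppp1r16b, the strongest were Myh7b, a myosin heavy chain gene (p of 2.99e-132), whose Pcl3 center at 2225 bp was the nearest of all 623 sites, and Ppp2r2b, a regulatory subunit of protein phosphatase 2A (p of 1.61e-85). An annotated microRNA gene lay within 2 kb of 6 sites without Pcl3 (0.963%) and of 54 with Pcl3 (1.87%). One of the 6 was Mir219-2 (chromosome 2, 29700751 to 29702350, p of 9.99e-43). None of the lists applied to 324 sites without Pcl3 (68.8%), close to the 68.1% of all Suz12 sites and above the 54.7% of sites with Pcl3 (66.3% in the 3 weakest strength groups).

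**Figure D4:**
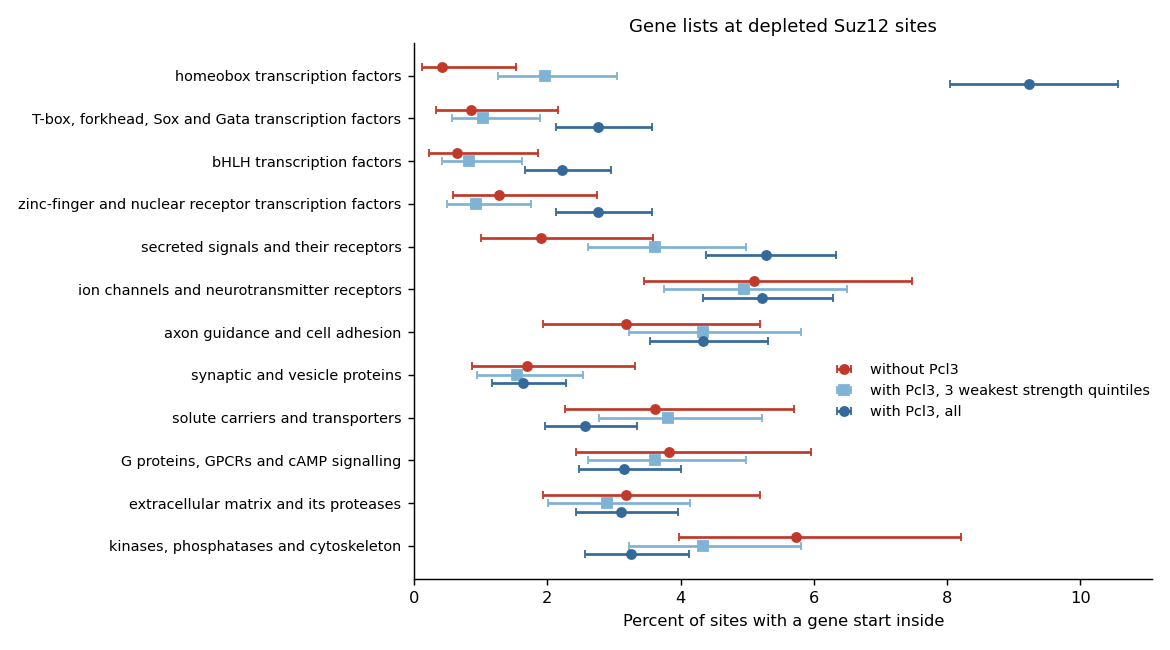
Percent of strong depleted Suz12 sites with a gene start inside that belong to each gene list; red, without Pcl3 (n = 471), light blue squares, with Pcl3 in the 3 weakest of 5 strength groups (n = 969), dark blue, all with Pcl3 (n = 2027), bars are 95% Wilson intervals over sites. Homeobox genes stand at 0.425%, 1.96% and 9.23%, and for most other lists the red and light blue intervals overlap widely.

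Of the 19 genes and microRNAs tested by ChIP in the study that had a Suz12 site within 2 kb, 3 had their strongest site among those without Pcl3. They were Dusp4, Acta1 and Tmem151a. The calls given are those of the site lists, and the study's own ChIP results at single genes are not reported here. Acta1, the skeletal muscle actin gene, had its site inside the gene (chromosome 8, 126415601 to 126417200, p of 1.00e-44), 775200 bp from the nearest Pcl3 center and with an H3K27me3-depleted site of p of 4.49e-11 within 2 kb.

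Tmem151a, a transmembrane protein gene, had its site over the start (chromosome 19, 5084551 to 5086100, p of 2.07e-52), with Pcl3 16950 bp away and no H3K27me3-depleted site within 2 kb. The 3 genes thus cover short, medium and long distances from Pcl3. Of the other 16, Tle3 had neither Pcl3 nor a depletion call, and the strongest sites of the remaining 15 had Pcl3 and were in the depleted list. These 15 include Tns1 (p of 3.25e-69), where a weaker site inside the gene, named below, was not in the depleted list. These too are calls of the site lists and not the study's ChIP results at single genes.

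The strong sites without Pcl3 that were not in the depleted list numbered 13. The strongest were at Fam176a (p of 2.70e-62), Tle3, a Groucho family corepressor gene (p of 2.84e-58), Gli2, a Hedgehog effector (p of 3.48e-55), Tacr1, a tachykinin receptor gene (p of 2.09e-51), and inside Tns1, the gene of a focal adhesion protein (p of 1.71e-48). Their strengths fall inside the range of the 623 depleted sites, so the strengths of kept and depleted sites overlapped. With 13 sites no test was made.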

How the data were processed

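The 10 libraries comprise 6 ChIP and 4 input libraries. Per the study's methods, single-end reads of 30 nucleotides were placed on mm9 by bowtie with only unique alignments kept, paired libraries were scaled to equal background, and 400 bp windows that passed a Skellam test at 1e-07 were joined. The authors deposited 4 site lists with 1 p-value per site. Unique alignment leaves out repeated sequence, equal background is assumed for every chromosome, and how the 2 Pcl3-TAP libraries were combined is not given in the sources used here. The bowtie version is not given there either.

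Sites were matched by chromosome, start and end, positions were made 1-based, and distances are between centers. Genes came from GENCODE vM1 and sequence from NCBIM37, the build of mm9. Shares carry 95% Wilson intervals, which cover counting over sites only, and differences Newcombe intervals. Fisher's exact tests were two-sided with Benjamini-Hochberg adjustment over 6 comparisons and over 8 motifs, threshold 0.05. Mantel-Haenszel odds ratios used 5 strength groups, and Breslow-Day tests compared odds ratios. Sites named were those at genes tested by ChIP, the 10 strongest, the 5 widest, the 8 with the smallest H3K27me3 p-value, the 5 farthest from Pcl3, up to 4 per gene list, and those at the selection limit and kept without Pcl3. The members, lists and tests were chosen with earlier results of these data known. The central sequences of 1 further pair of sites are not reported here. Scripts were first checked with simulated sites. The software was statsmodels 0.14.6, scipy 1.17.1, pandas 2.3.3, numpy 2.4.6 and matplotlib 3.10.9 under Python 3.11.15.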

Additional observations from a re-analysis of the deposited data

How the results depend on the processing

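The settings tried were other p-value limits, no Pcl3 center within 10 kb, a stricter Pcl3 p-value, omission of chromosome 11 or of X and Y, neighbouring sites counted once, strength groups, and other definitions of each feature. Of 165 alternative values, 136 left direction and call as they were or, for counts, moved by less than 1.5 times. Sites without Pcl3 numbered 375 at p of at most 1e-50. For H3K27me3 the odds ratio of 0.878 became 0.781 at p of at most 1e-30 (adjusted p of 0.0475), and within strength groups 1.47, 1.44 with at least 1 shared base and 1.505 without chromosome 11, the last 2 added after the data were seen. With neighbouring sites counted once, the odds ratio of a gene start became 1.05 and that of a CpG island 1.22. With strength groups as well, also added after the data were seen, a CpG island gave 0.999 and another Suz12 site within 10 kb 0.885. A looser island over the whole site gave 1.30, and GCGCGC over the whole site 0.722. The other changes of direction were in odds ratios past the threshold neither before nor after: GCGCGC gave 0.981 with neighbouring sites counted once and 0.908 within strength groups, CCGGAA 1.004 and 1.06 in the same settings and 1.09 at p of at most 1e-30, CANNTG 0.979 within strength groups and 0.977 without chromosome 11, and TTTGGCGC 0.604 at p of at most 1e-50. Of the 8 motifs, 4 passed the threshold, 1 within strength groups and 1 with neighbouring sites counted once, TAATTA both times. The causes were not tested, except that whole sites differ in length. No replicate could be left out, since each Suz12 and H3K27me3 condition had 1 library and the Pcl3-TAP libraries share 1 list. No paired analysis was possible because the lists carry no replicate values.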
